A study of Arabidopsis thaliana with 6 samples.

Results

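The nuclear photosynthesis genes of Arabidopsis thaliana examined here encode the light-harvesting chlorophyll a/b-binding proteins, the nuclear-encoded subunits of both photosystems, the small subunit of Rubisco and Rubisco activase. They were chosen by name from the protein-coding nuclear genes of the RefSeq gene table: a symbol or synonym that starts with LHCA, LHCB, LHB1 or CAB and a number, PSA or PSB and 1 letter, or RBCS and a number, or that equals RCA or NPQ4. The rule matched 53 of 27444 genes. Of these, 3 share only the letters PSAT with the photosystem I genes and encode a phospholipid sterol acyltransferase and phosphoserine aminotransferases, which leaves 50 photosynthesis genes. The 3 PSAT genes had no summit inside them or within 3 kb in either line. The family was singled out because some of its genes had been seen among the peaks of the wild-type line, so that every count and level below describes these peak lists and no test is attached.

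Chlorophyll a/b-binding proteins form the antennae that collect light and pass its energy to the reaction centres of photosystem II and photosystem I. The major antenna of photosystem II is built from LHCB1, LHCB2 and LHCB3 proteins, the minor antenna links it to the core, and the LHCA proteins serve photosystem I. Rubisco fixes carbon dioxide, with a small subunit encoded by a nuclear RBCS family, and Rubisco activase (RCA) keeps the enzyme active. These genes are strongly transcribed in green tissue, and sepals and young carpels of an inflorescence are green as well.

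Among the MADS-domain proteins that set floral organ identity, SEPALLATA3 (SEP3) binds DNA as dimers and as tetramers. Chromatin immunoprecipitation with sequencing (ChIP-seq) was done on inflorescences of plants in the sep1,2,3 background, which all groups share, rescued with pSEP3:SEP3wt (wild-type SEP3, SEP3wt) or pSEP3:SEP3tet (SEP3 deficient in tetramerization, SEP3tet), both under a SEP3 promoter per the labels' genotype. Per line there were 2 samples precipitated with an antibody to native SEP3 and 1 mock precipitated with pre-immune serum. The plants' age and the number of independent transgenic lines are not given in the sources used here. The files hold 1 peak list per line, with 2225 peaks for SEP3wt and 3601 for SEP3tet, without values per replicate, and how far replicates of a line differed is therefore unknown. Sequencing depth is unknown here and the mock signal was not analysed here. Each peak carries the authors' fold enrichment at its summit (ChIP signal over the peak caller's background) and the −log10 q of the peak caller, which rank peaks within a list. Because the folds of the lists come from separate peak calls, values of the same gene in both lines are given side by side and are not a measured change.

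Wild-type SEP3 peaks had their summits in the bodies of all 9 major antenna genes of photosystem II (all genes 3.11%). SEP3tet peaks had their summits in 2 of these 9 genes, LHCB1.3 and LHCB1.5 (all genes 4.53%). Without peaks over 1 kb wide the numbers of major antenna genes were 5 and 1. With peaks of −log10 q of at least 10 they were 4 and 0. Shares over all genes are not given under these 2 limits. Over all 50 photosynthesis genes, 23 (46.0%) had a SEP3wt summit inside the gene or within 3 kb of it, beside 13.7% of all nuclear genes. In SEP3tet it was 18 of 50 (36.0%), beside 21.2% of all genes. Over all 53 matched genes the shares were 43.4% and 34.0%. A total of 14 genes had a summit in both lines (all genes 12.4%), 9 in SEP3wt only (all genes 1.3%), 4 in SEP3tet only (all genes 8.79%) and 23 in neither. With equal numbers of strongest peaks from both lists the SEP3wt count stayed at 23 and the SEP3tet count fell to 9, and with peaks of −log10 q of at least 10 they were 8 and 4.

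The gene body itself held a SEP3wt summit in 17 of the 50 genes (34.0%) beside 3.11% of all genes, and a SEP3tet summit in 8 (16.0%) beside 4.53%. The photosynthesis genes were shorter than most, with a median length of 1441.5 bp beside 2078 bp over all genes. Outside the major antenna, 14 of 41 genes in each line had summits inside them or up to 3 kb away (34.1%). Over all genes these shares were 13.7% in SEP3wt and 21.2% in SEP3tet. Gene bodies held summits in 8 of 41 genes in SEP3wt (19.5%, all genes 3.11%) and 6 of 41 in SEP3tet (14.6%, all genes 4.53%). The counts of the lines thus lay close together, while the shares over all genes were lower in SEP3wt than in SEP3tet.

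**Figure D1:**
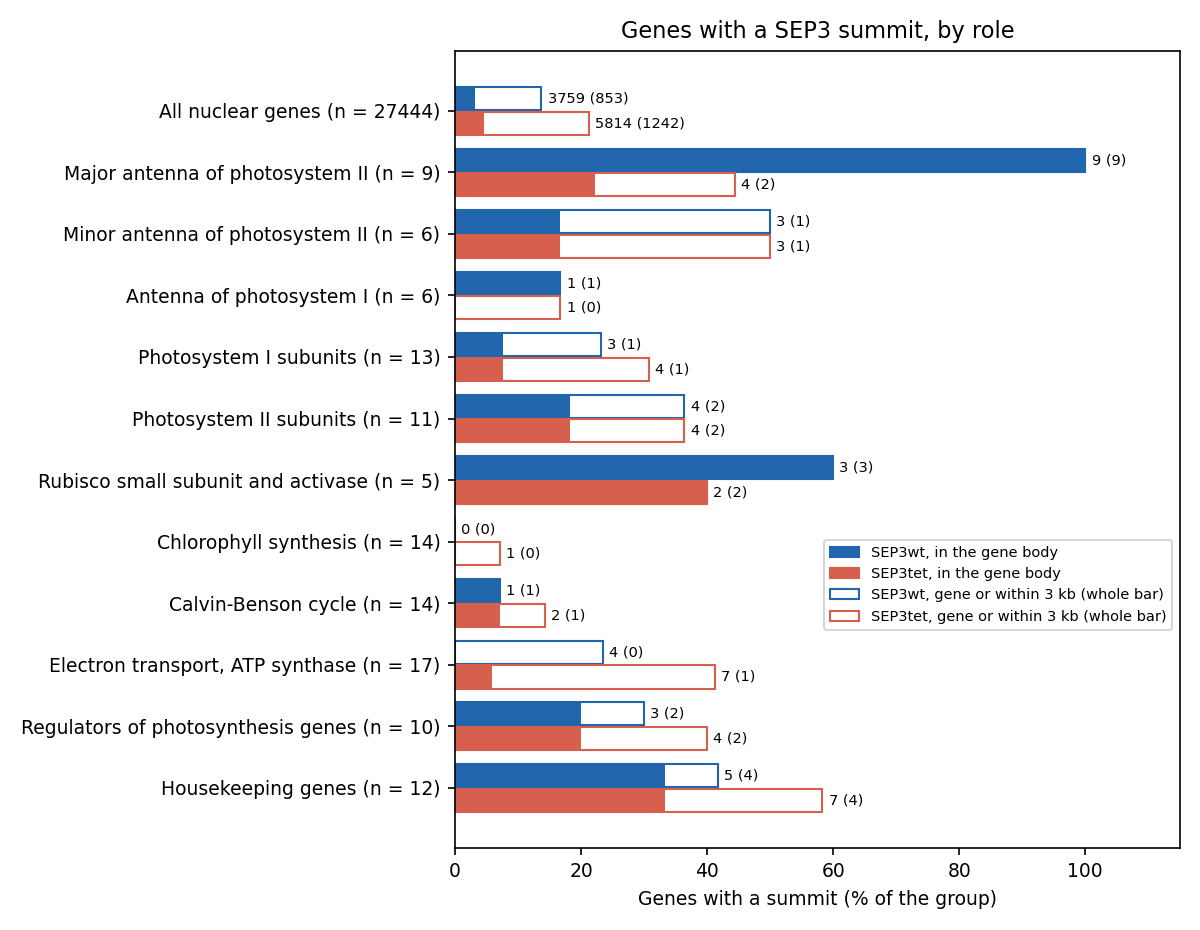
Share of genes with a SEP3 summit inside the gene or within 3 kb of it (whole bar, % of the group) and in the gene body (filled part), by role, with the number of genes beside each bar and the gene-body number in parentheses. SEP3wt summits were in the bodies of 9 of 9 major antenna genes and SEP3tet summits in 2 of 9, beside 3.11% and 4.53% of all nuclear genes.

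At 8 genes SEP3wt had a summit in the gene body and SEP3tet had none within 3 kb: LHCB1.2, LHCB2.1, LHCB2.2, LHCB2.3, LHCB3, LHCA4, PSAF and RCA. Of all genes, 0.299% had this pattern. The reverse pattern was found at 1 photosynthesis gene, PSAD-2, beside 1.59% of all genes. These are the kind of peaks that led to the choice of the family, so nothing is read from these shares.

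The LHCB1 genes lie in clusters, LHCB1.1 (CAB2, AT1G29920), LHCB1.2 (CAB3, AT1G29910) and LHCB1.3 (CAB1, AT1G29930) on chromosome 1, and LHCB1.4 (LHB1B1, AT2G34430) and LHCB1.5 (LHB1B2, AT2G34420) on chromosome 2. Their coding sequences are close copies of each other, and how the authors treated reads that match several copies was not given in the sources used here. Signal may therefore be placed on the wrong copy, and the peaks of these genes are not independent of each other. The same limit may apply to the LHCB2 and RBCS copies, whose sequences were not compared here.

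Among all peaks at photosynthesis genes, the SEP3wt peak over LHCB1.5 had the highest fold of that list. It was 1391 bp wide, covered the whole gene (TAIR10, chromosome 2, 14522213 to 14523603) and had a fold of 5.94 and a −log10 q of 24.2. In SEP3tet an overlapping peak of 1165 bp covered 97.6% of the gene (14522379 to 14523543) at a fold of 2.24 and a −log10 q of 2.98. The SEP3wt peak stood at percentile 92.0 of fold in its list and the SEP3tet peak at percentile 0.56 in its own. The neighbour LHCB1.4 had a narrow SEP3wt peak of 180 bp in the gene body (14525105 to 14525284; fold 2.49, −log10 q 2.86), with no SEP3tet peak over it. The LHCB1.5 peaks also count for LHCB1.4, since their summits lie 1714 bp (SEP3wt) and 1320 bp (SEP3tet) from it.

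In the cluster on chromosome 1, LHCB1.3 was covered over 85.4% of its length by 1 SEP3wt peak of 1146 bp (10478064 to 10479209), with a fold of 5.31 and a −log10 q of 18.3. In SEP3tet the same stretch held 2 peaks, of 501 bp (10478032 to 10478532; fold 2.60) and 537 bp (10478650 to 10479186; fold 2.46), with −log10 q of 3.96 and 3.26. Both lines thus had peaks over LHCB1.3, high in the ranking of the SEP3wt list (percentile 87.5 of fold) and low in that of the SEP3tet list (percentiles 4.64 and 1.86).

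LHCB1.1 and LHCB1.2, beside it, had peaks over the gene in SEP3wt alone. At LHCB1.1 the peak was 1095 bp wide and covered 83.3% of the gene (10474784 to 10475878), with a fold of 4.68 and a −log10 q of 12.3. LHCB1.2 had 2 narrow peaks in its body, of 223 bp (10472450 to 10472672; fold 2.99) and 193 bp (10472973 to 10473165; fold 2.62). The nearest SEP3tet summit lay 2256 bp from LHCB1.1 and 4723 bp from LHCB1.2, over LHCB1.3 in both cases.

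The LHCB2 genes encode the other abundant protein of the mobile antenna, and all 3 had SEP3wt peaks that no SEP3tet peak overlapped. Of all SEP3wt peaks with a summit in a gene body, 22.5% had no such overlap. LHCB2.1 (AT2G05100) had a peak of 1143 bp over 76.7% of the gene (chromosome 2, 1823154 to 1824296; fold 5.01, −log10 q 14.4). LHCB2.2 (AT2G05070) had 2 narrow peaks (1799402 to 1799577 and 1799738 to 1799977) with folds of 2.28 and 2.87 and −log10 q of 1.57 and 3.65, where the lowest of the list was 1.32. LHCB2.3 (AT3G27690) had a peak of 614 bp (chromosome 3, 10256302 to 10256915; fold 3.70, −log10 q 7.19). The level differed within the trio, with LHCB2.1 above the list median of 3.38, LHCB2.3 just above it and LHCB2.2 below it. No SEP3tet summit lay near any of them: the nearest was 228552 bp from LHCB2.1, 204796 bp from LHCB2.2 and 10964 bp from LHCB2.3.

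LHCB3 (AT5G54270), the third kind of subunit in major antenna trimers, had 2 weak SEP3wt peaks toward 1 end of the gene (chromosome 5, 22039073 to 22039356 and 22039470 to 22039589). Their folds were 2.89 and 2.56 and their −log10 q values 3.46 and 2.12. The second peak ran past the gene edge, and its summit also lay inside the neighbour ATM2. The nearest SEP3tet summit was 10181 bp from LHCB3.

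Taking the 12 SEP3wt peaks with a summit in a major antenna gene together, 10 had no overlap with a SEP3tet peak (83.3%), beside 22.5% of all SEP3wt peaks with a summit in a gene body. Of the 12, 4 were over 1 kb wide (33.3%), beside 15.9% of those peaks. Peaks covered a median of 38.8% of each of the 9 genes, from 13.7% at LHCB1.4 to 100% at LHCB1.5, beside a median of 13.0% over the 853 genes with a SEP3wt summit in the body. The 12 peaks had a median fold of 2.94, beside 3.21 for all SEP3wt gene-body peaks and 3.38 for the whole list. The 4 wide peaks ranked high and the narrow ones mostly low.

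**Figure D2:**
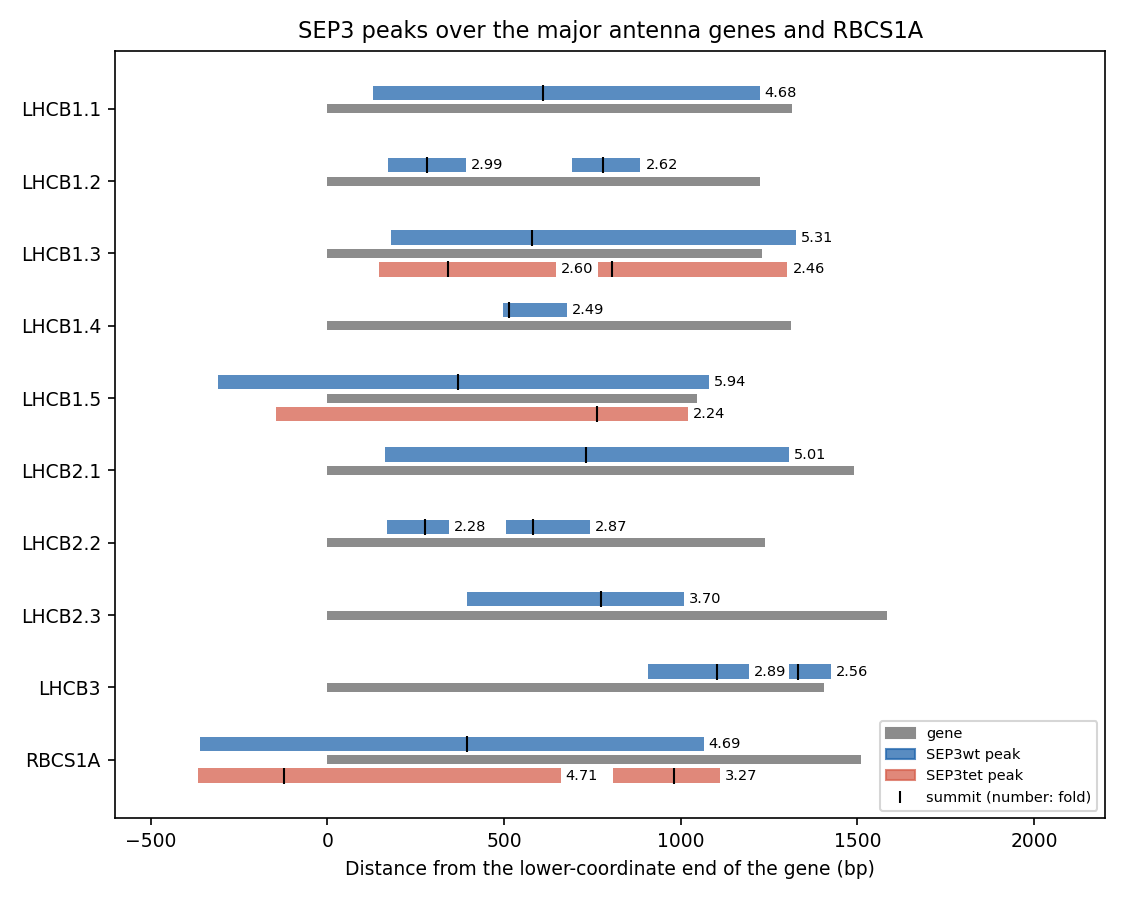
SEP3 peaks over the 9 major antenna genes and RBCS1A, drawn by distance in bp from the lower-coordinate end of each gene (grey; strand not shown), with SEP3wt peaks above the gene, SEP3tet peaks below it, a tick at each summit and the authors' fold beside each peak. SEP3wt peaks lie over all 10 genes, and SEP3tet peaks over LHCB1.3, LHCB1.5 and RBCS1A only.

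Of 6 minor antenna genes the same 3 had summits in both lines (12.4% of all genes did), LHCB4.1, LHCB4.3 and LHCB6. Their peaks overlapped between the lines except for 1 SEP3tet peak. Over the whole lists, 1884 of 2225 SEP3wt peaks and 1921 of 3601 SEP3tet peaks overlapped a peak of the other line. LHCB4 and LHCB6 proteins (CP29 and CP24) connect the major antenna to the photosystem II core. LHCB4.3 (AT2G40100) had a summit just inside the gene in both lines, only 4 bp apart, with folds of 3.10 in SEP3wt (chromosome 2, 16745524 to 16745736) and 3.94 in SEP3tet (16745429 to 16745778). These narrow peaks covered 6.07% and 8.40% of the gene. LHCB4.1 (AT5G01530) had summits 160 bp (SEP3wt) and 203 bp (SEP3tet) outside the gene (chromosome 5, 210466 to 210803 and 210483 to 210860), with folds of 3.10 and 3.36. A further peak of each line lay 1 to 3 kb away, nearest to the neighbours AIRP2 and RUS5, with a fold of 2.83 in SEP3wt (205969 to 206088) and, as the strongest SEP3tet peak counted for LHCB4.1, of 3.60 in SEP3tet (205943 to 206152). LHCB6 (AT1G15820) had a peak at the gene edge in both lines (SEP3wt, chromosome 1, 5446274 to 5446518, fold 2.89; SEP3tet, 5446272 to 5446562, fold 2.64), with the summits nearer to its neighbour AT1G15810. The SEP3tet-only peak of LHCB6 (5443825 to 5444070, fold 3.31) was nearest to AT1G15800. LHCB4.2, LHCB5 and LHCB7 had no summit within 3 kb in either line.

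Among the antenna genes of photosystem I, 1 of 6 had a summit in SEP3wt (16.7%, all genes 13.7%) and another 1 in SEP3tet (16.7%, all genes 21.2%). LHCA4 (AT3G47470) had 2 SEP3wt peaks that no SEP3tet peak overlapped. The first, with a fold of 3.27, lay 103 bp outside the gene and nearer to its neighbour ATSMC2 (chromosome 3, 17493138 to 17493331). The second lay in the gene body (17493536 to 17493952) at a fold of 2.18, at percentile 0.65 of its list. LHCA2 (AT3G61470) had 2 SEP3tet peaks outside the gene, with folds of 3.02 (chromosome 3, 22744383 to 22744598) and 3.12 (22745216 to 22745374), and no SEP3wt summit within 39297 bp. LHCA1, LHCA3, LHCA5 and LHCA6 had none.

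Of 13 photosystem I subunit genes, 3 had a SEP3wt summit inside the gene or within 3 kb of it (23.1%, all genes 13.7%) and 4 a SEP3tet summit (30.8%, all genes 21.2%). In each line 1 gene had it in the gene body (7.69%, all genes 3.11% in SEP3wt and 4.53% in SEP3tet). PSAF (AT1G31330), whose protein docks plastocyanin, had a SEP3wt-only peak at the gene edge (chromosome 1, 11214635 to 11214798) with a fold of 2.40 and a −log10 q of 1.71. PSAD-2 (AT1G03130), whose protein docks ferredoxin, had a SEP3tet-only peak (chromosome 1, 754003 to 754176) with a fold of 2.54 and a −log10 q of 1.79. The lowest −log10 q of any peak in the SEP3wt list was 1.32.

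PSAH-1 (AT3G16140), which encodes a subunit at the docking face for the mobile antenna, had a shared peak within 1 kb of the gene, with folds of 3.48 in SEP3wt (chromosome 3, 5470351 to 5470538) and 4.13 in SEP3tet (5470359 to 5470601) and summits 18 bp apart. PSAP (AT2G46820) had a shared peak 1 to 3 kb away, nearest to its neighbour AT2G46810, with folds of 4.19 (SEP3wt, chromosome 2, 19240872 to 19241094) and 4.08 (SEP3tet, 19240802 to 19241118). PSAN (AT5G64040) had a SEP3tet-only peak within 1 kb that was nearest to its neighbour ERS (chromosome 5, 25629712 to 25629962; fold 3.55). PSAD-1, PSAE-1, PSAE-2, PSAG, PSAH2, PSAK, PSAL and PSAO had none.

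In photosystem II, 4 of 11 genes had a summit in each line (36.4%, all genes 13.7% in SEP3wt and 21.2% in SEP3tet) and 3 in both (27.3%, all genes 12.4%). NPQ4 carried the SEP3tet peak with the highest fold inside any photosynthesis gene. NPQ4 (AT1G44575) encodes PsbS, the protein needed for the rapid release of excess light energy as heat. Its peak was narrow and well inside the gene in both lines, with summits 3 bp apart: 317 bp in SEP3wt (chromosome 1, 16871238 to 16871554; fold 4.35, −log10 q 11.0) and 385 bp in SEP3tet (16871230 to 16871614; fold 5.67, −log10 q 16.7). It covered 9.88% and 12.0% of the gene and ranked at percentiles 75.2 and 86.9 of fold.

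PSBX (AT2G06520), a small core subunit, had a shared gene-body peak with folds of 3.21 in SEP3wt (chromosome 2, 2587944 to 2588259) and 2.59 in SEP3tet (2587926 to 2588205), and a second, SEP3tet-only peak at the gene edge (2588385 to 2588638; fold 2.78). PSBY (AT1G67740) had a shared peak 1 to 3 kb away that was nearest to its neighbour KCR1, with folds of 3.38 in SEP3wt (chromosome 1, 25391284 to 25391447) and 6.35 in SEP3tet (25391261 to 25391564). The latter was the highest fold of any SEP3tet peak counted here. PSBR (AT1G79040) had a SEP3wt-only peak nearest to RECA1 (chromosome 1, 29736976 to 29737137; fold 2.62). PSBO1 (AT5G66570), which encodes a manganese-stabilising protein of the oxygen-evolving complex, had a SEP3tet-only peak nearest to AT5G66580 (chromosome 5, 26572182 to 26572517; fold 3.12). PSBO2, PSBP-1, PSBP-2, PSBQ-1, PSBQ-2 and PSBW had none.

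Of 5 Rubisco genes, RBCS1A and RBCS3B had summits in both lines (40.0%, all genes 12.4%) and RCA in SEP3wt only. RBCS1A (AT1G67090) had 1 SEP3wt peak of 1425 bp over 70.5% of the gene (chromosome 1, 25047798 to 25049222; fold 4.69, −log10 q 13.6). In SEP3tet the stretch held 2 peaks, of 1027 bp with its summit 124 bp outside the gene (25047791 to 25048817; fold 4.71, −log10 q 11.5) and of 302 bp in the gene body (25048967 to 25049268; fold 3.27). The strongest summits of the lines therefore lay on opposite sides of the gene edge. RBCS3B (AT5G38410) had a narrow peak in both lines with summits 1 bp apart, at folds of 3.59 in SEP3wt (chromosome 5, 15377014 to 15377248) and 5.29 in SEP3tet (15376955 to 15377382). Its cluster neighbours RBCS2B and RBCS1B had no summit within 3 kb. RCA (AT2G39730) had a SEP3wt-only peak of 121 bp (chromosome 2, 16571203 to 16571323; fold 2.67, −log10 q 2.54).

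**Figure D3:**
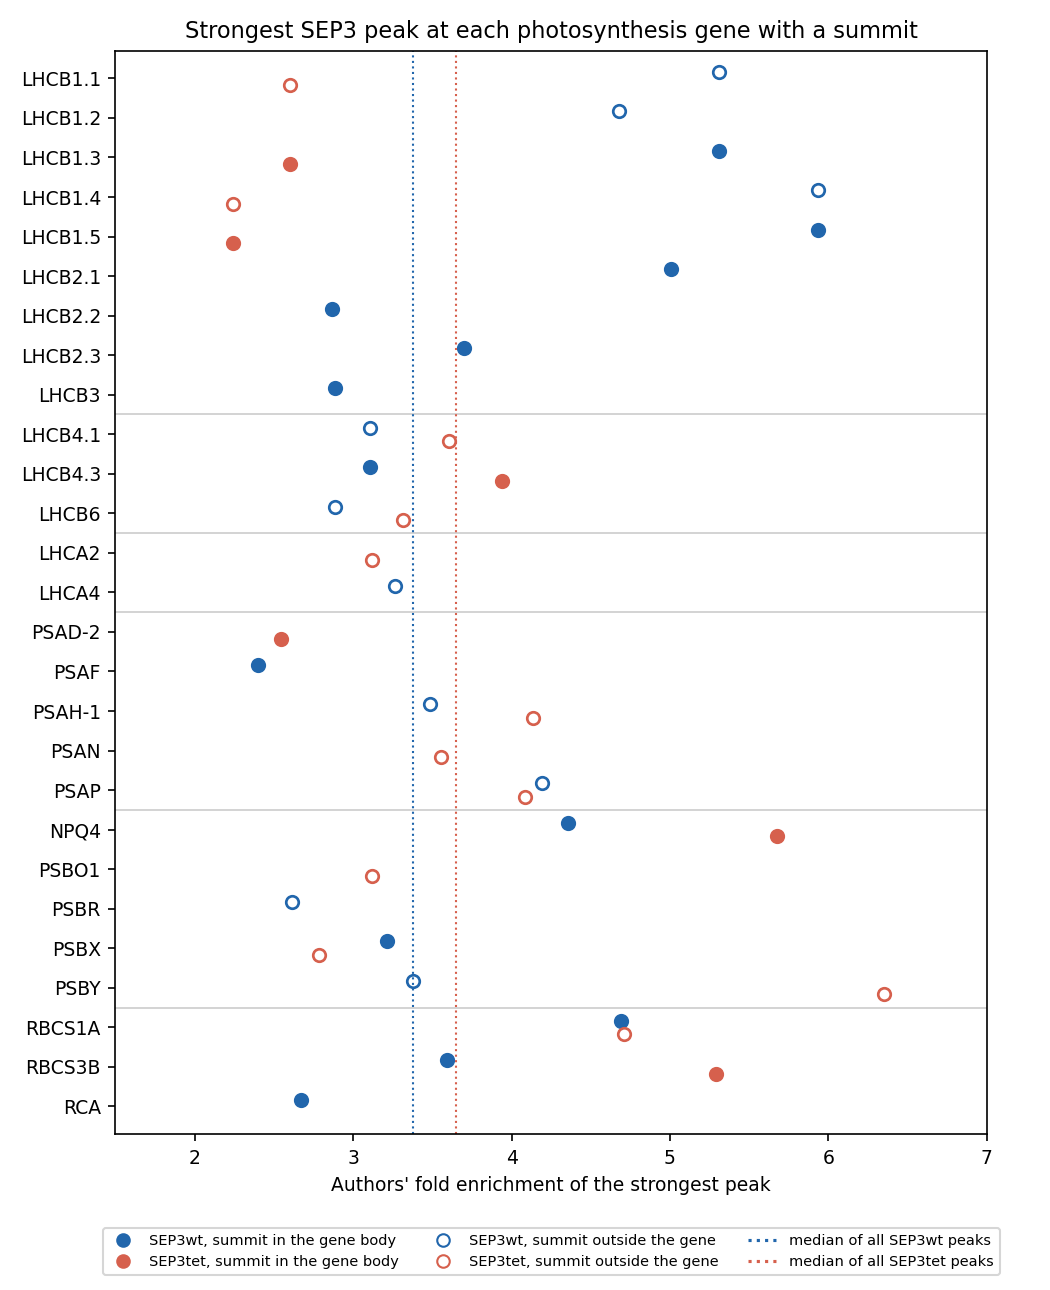
Authors' fold enrichment of the strongest peak with a summit inside the gene or within 3 kb of it, for the 27 photosynthesis genes that have one, with filled points for summits in the gene body, open points for summits outside it, and dotted lines at the median fold of each list (3.38 in SEP3wt, 3.65 in SEP3tet). Points of LHCB1.1, LHCB1.2 and LHCB1.4 are open because the strongest peak in their window lies over a neighbouring LHCB1 gene. A missing point means no summit in that line.

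The windows of neighbouring genes overlap, so that the 35 SEP3wt pairs of gene and peak come from 28 distinct peaks and the 25 SEP3tet pairs from 22. In SEP3wt the strongest peak was nearest to another gene for 8 of 23 genes, and in SEP3tet for 8 of 18. The SEP3wt summit farthest from a gene that still counted was 2809 bp from LHCB4.1. The summit closest to a gene without any was 3041 bp from PSAK (SEP3wt, fold 3.16). Over the 23 photosynthesis genes with no summit in either line, the nearest summit of either list lay a median of 10227 bp away (3041 to 63227 bp).

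Most peaks at photosynthesis genes ranked in the lower part of their list. The median fold of the 28 SEP3wt peaks was 3.10 (2.18 to 5.94), beside 3.38 over the list, and of the 22 SEP3tet peaks 3.29 (2.24 to 6.35), beside 3.65. In SEP3wt 15 of the 28 peaks had no overlap with a SEP3tet peak (53.6%), beside 15.3% of the list. In SEP3tet it was 7 of 22 (31.8%), beside 46.7% of the list. For peaks with the summit in the body of a photosynthesis gene, the line-only numbers were 13 of 20 in SEP3wt (65.0%) and 1 of 9 in SEP3tet (11.1%). Over all peaks with a summit in a gene body they were 227 of 1008 in SEP3wt (22.5%) and 635 of 1433 in SEP3tet (44.3%).

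**Figure D4:**
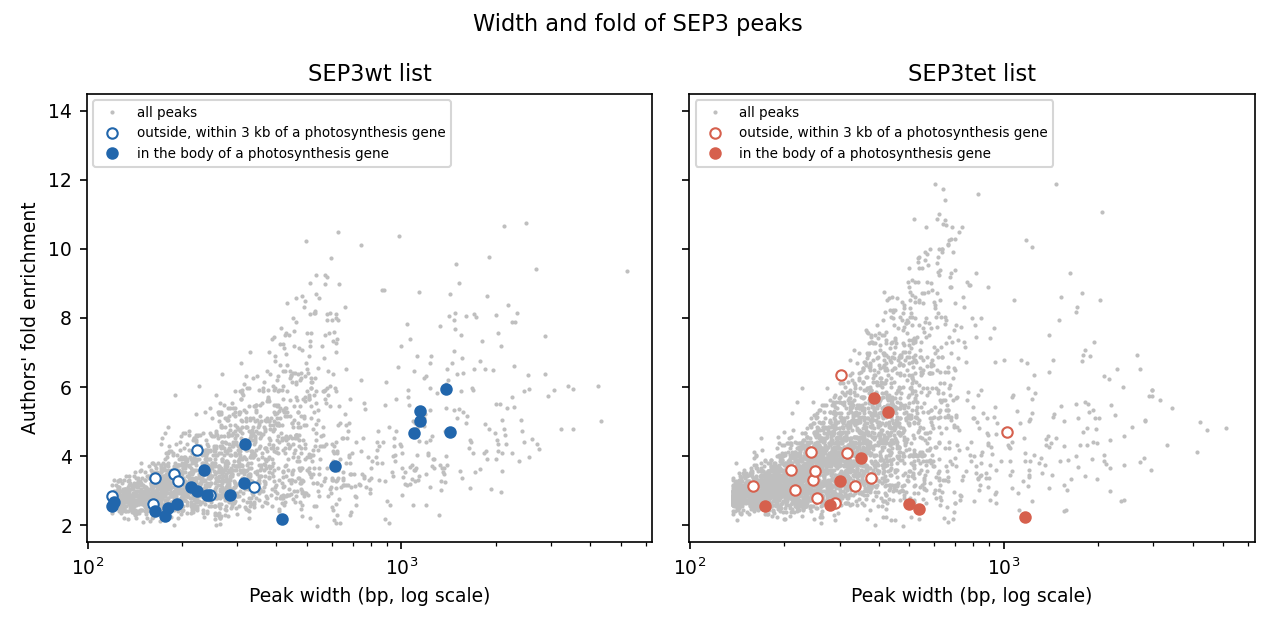
Peak width (bp, log axis) against the authors' fold enrichment for all peaks of each list (grey), peaks with the summit in the body of a photosynthesis gene (filled) and peaks outside but within 3 kb of one (open). In SEP3wt 5 gene-body peaks, at LHCB1.1, LHCB1.3, LHCB1.5, LHCB2.1 and RBCS1A, are over 1 kb wide with folds of 4.68 to 5.94, and in SEP3tet the only such peak, at LHCB1.5, has a fold of 2.24.

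Over 45 genes of neighbouring pathways (chlorophyll synthesis, the Calvin-Benson cycle, electron transport and ATP synthase), summits were about as frequent as over all genes, at 5 genes in SEP3wt (11.1%, all genes 13.7%) and 10 in SEP3tet (22.2%, all genes 21.2%). Gene bodies held them in 1 of these 45 genes in SEP3wt (2.22%, all genes 3.11%) and 2 in SEP3tet (4.44%, all genes 4.53%). Of 14 chlorophyll synthesis genes, 0 had a SEP3wt summit inside the gene or within 3 kb of it and 1 a SEP3tet summit, DVR (fold 3.39; nearest to BMY3). Of 14 Calvin-Benson cycle genes, 1 had a SEP3wt summit (7.14%) and 2 a SEP3tet summit (14.3%). CP12-2, which encodes a regulator that binds glyceraldehyde-3-phosphate dehydrogenase and phosphoribulokinase, had a SEP3wt peak of 1097 bp in the gene body (chromosome 3, 23091211 to 23092307; fold 3.59), overlapped by a SEP3tet peak. TIM had a SEP3tet-only peak with a fold of 3.46, nearest to AT2G21185.

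Of 17 electron transport and ATP synthase genes, 4 had a SEP3wt summit (23.5%, all genes 13.7%) and 7 a SEP3tet summit (41.2%, all genes 21.2%). In the gene body it was 0 and 1 (5.88%), beside 3.11% and 4.53% of all genes. TAP38, which encodes the phosphatase that acts on the major antenna proteins, had a strong shared peak within 1 kb that was nearest to AT4G27810 (SEP3wt, chromosome 4, 13854135 to 13854470, fold 6.25; SEP3tet, 13854096 to 13854530, fold 7.12). STN7, the kinase that opposes it, had a shared peak 1 to 3 kb away (SEP3wt fold 4.03, SEP3tet fold 4.18). The ferredoxin genes had peaks nearest to neighbours, FD1 with folds of 2.97 and 4.81 beside TMN1 and FD2 with a SEP3tet-only fold of 3.99 beside SNRK2.10. PETC, which encodes the Rieske protein of the cytochrome complex, had a SEP3tet-only peak at 3.55.

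Of 10 transcription factor genes known to control photosynthesis genes, 3 had a summit in SEP3wt (30.0%, all genes 13.7%) and 4 in SEP3tet (40.0%, all genes 21.2%), the former 3 in both. PIF4, a phytochrome-interacting factor, had a shared gene-body peak (SEP3wt, chromosome 2, 17886326 to 17886839, fold 6.15; SEP3tet, 17886164 to 17886869, fold 7.79). At PIF5 the strongest peaks lay at different sites, within 1 kb of the gene in SEP3wt (fold 3.16) and in its body in SEP3tet (fold 5.34). GNL had a shared peak nearest to BGAL12, with folds of 4.52 and 5.39. GLK1, an activator of antenna and chlorophyll genes, had a SEP3tet summit only (chromosome 2, 8853874 to 8854161; fold 4.04). GLK2, GNC, HY5, HYH, PIF1 and PIF3 had none.

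A list of 12 genes outside photosynthesis, chosen as strongly expressed and called housekeeping genes here, was set beside the family. The reason was that UBQ10 was known to hold a wide gene-body peak in both lines. Expression was not measured here. In SEP3wt 5 of 12 had a summit (41.7%, all genes 13.7%) and in SEP3tet 7 (58.3%, all genes 21.2%). Gene bodies held a summit in 4 of 12 genes in each line (33.3%), beside 3.11% of all genes in SEP3wt and 4.53% in SEP3tet. UBQ10, whose peak led to the choice of this list, is among them, so nothing is read from these shares. UBQ11, a polyubiquitin gene, had a peak of 2079 bp in SEP3wt (chromosome 4, 2587275 to 2589353; fold 7.20) and of 2085 bp in SEP3tet (2587358 to 2589442; fold 4.02). UBQ10 had folds of 7.87 and 3.66. At EF1a-A4 (AT5G60390) the SEP3wt peak was 2369 bp wide with a fold of 3.87, and the strongest SEP3tet peak had 4.04. At CAT3 the strongest peaks of the lines lay at different sites. That of SEP3wt was in the gene body (fold 3.16), and that of SEP3tet was outside the gene within 1 kb (fold 4.76). At ACT8 the folds were 3.16 and 4.52. The strongest SEP3wt peaks at these 5 genes, wide or narrow, each overlapped a SEP3tet peak. So did 1884 of all 2225 SEP3wt peaks, and 781 of the 1008 with a summit in a gene body. The wide SEP3wt peaks over LHCB1.3, LHCB1.5 and RBCS1A also overlapped one, and those over LHCB1.1 and LHCB2.1 did not. Nothing is read from this comparison.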

How the data were processed

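Inflorescence ChIP-seq of 6 samples was used, from about 1 g of tissue each, with plants grown at 22 °C in long days (16 h light, 8 h dark), per the labels' protocols. The authors deposited 2 peak lists; the submitters' processing notes name MACS2 2.2.7.1, Bowtie2 2.2.5, Trimmomatic 0.36, deepTools and the build TAIR10. How replicates were combined, and whether the mock served as control was not given in the sources used here. Per the layout of the deposited files, each peak has the authors' fold enrichment (a ratio), their −log10 q, and a −log10 p and display score that were not used.

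Summits were assigned with Python 3.11.15 and pandas 2.3.3 to genes of a RefSeq table of TAIR10.1, which gives no strand; coordinates printed are the peaks' own on TAIR10, counted from 1. Of summits, 45.3% (SEP3wt) and 39.8% (SEP3tet) lay in gene bodies, against 58.5 to 64.0% and 59.7 to 64.0% after 8 shifts of 2 to 20 kb. Letter case was ignored in matching names. Peaks were shared where they overlapped by at least 1 bp. The assignment was tested on simulated data. A peak's percentile is its rank by fold within its own list.

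The members, the 5 comparison lists (67 genes, matched by locus) and the alternatives were chosen with earlier results of these data known. Every member with a summit is named with its strongest peak, and up to 5 genes of each comparison list, those with the highest fold. Planned motif counts in promoters were not made, since no sequence was used here.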

Additional observations from a re-analysis of the deposited data

How the results depend on the processing

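Counts of genes and peaks were recomputed under 10 alternatives, and 41 of 68 recomputed counts stayed within 1.5 times the value reported. SEP3wt held at least as many photosynthesis genes as SEP3tet, in the window and in the gene body, under every alternative run. The family was singled out from genes seen among SEP3wt peaks, and every alternative reuses the same lists. This order is therefore no independent support. With peaks of −log10 q of at least 5, genes with a summit numbered 13 (SEP3wt), 9 (SEP3tet) and 6 (both), gene-body genes 8 and 3, and line-only peaks 5 and 4. Raising this limit to 10 gave 8, 4 and 2, with 2 SEP3tet-only genes, gene-body genes 6 and 2, and line-only peaks 4 and 2. Equal numbers of strongest peaks left the SEP3wt list whole, so its gene counts could not change and are among the 41. SEP3tet then fell to 9 genes, both lines to 8, SEP3wt only rose to 15 and SEP3tet only fell to 1. There were 3 SEP3tet gene-body genes and 1 SEP3tet-only peak. Counting the nearest gene only gave 11 SEP3tet genes, 9 in both, 2 in SEP3tet only and 4 SEP3tet-only peaks. A window of 1 kb gave 4 SEP3tet-only peaks, and sharing by summits within 100 bp gave 13. Whole peaks in place of summits, leaving out peaks over 1 kb, tandem LHCB1 copies counted as 1 locus and an overlap of at least 50% of the shorter peak moved none of these counts past 1.5 times. The gene-body count of the 9 major antenna genes was recomputed under 5 alternatives chosen after seeing the data. From 9 (SEP3wt) and 2 (SEP3tet) it went to 5 and 1 without peaks over 1 kb, 5 and 0 at a −log10 q of 5, and 4 and 0 at 10. Equal numbers of peaks, with the SEP3wt list left whole, gave 9 and 0, and whole peaks gave 9 and 2. Leaving out peaks over 1 kb took all SEP3wt summits from LHCB2.1, LHCB1.3 and RBCS1A, and whole peaks gave PSAK 2 in each line. No paired analysis was possible because the peak lists hold no values per replicate, and for the same reason no replicate was left out. The depth is unknown, and a missing peak shows only that none was called.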
